A study of Drosophila melanogaster with 16 samples.

Results

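The positions described here are adenosines of the Drosophila transcriptome at which reads with a guanosine were already present in larval brain cells in which the FMR1-ADARcd editing fusion had not been induced. They were chosen from the bulk variant calls as A-to-G positions in transcript orientation with a call quality above 250, a share of alternate reads under 0.95 over the 14 bulk samples, and at least 2 edited reads in the uninduced brain sample. This rule found 308 positions in 257 genes, of 32873 A-to-G positions in 5003 genes. The reads of the uninduced brain sample chose the positions, so their values there are a description and carry no test.

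In the study, RNA editing was used to record the RNAs near FMR1, an RNA-binding protein found in stress granules, by expressing FMR1 fused to the catalytic domain of ADAR (FMR1-ADARcd). The brain samples were dissociated cells of L3 larvae from a cross of males with a UAS transgene of the V5-tagged fusion and females with elav-GeneSwitch-Gal4, in which the drug RU486 switches the fusion on in neurons. There were 3 replicates kept in Schneider's medium for 4 h, 3 replicates kept for 4 h in 0.5 mM sodium arsenite, and 1 uninduced sample without RU486. S2 cells, a line of Drosophila embryonic origin, carried the fusion under copper control, with 3 Schneider's and 3 arsenite replicates of 4 h each after 4 h in 1 mM copper, and 1 uninduced sample. All brain samples thus came from larvae of the same cross, pooled over animals, and glia and other cells of the brain remained in them.

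Adar deaminates adenosine in double-stranded RNA to inosine, which reverse transcriptase reads as guanosine. In Drosophila the enzyme acts mostly in neurons, and its known targets are rich in ion channels, transmitter receptors and proteins of vesicle release, often at several adenosines of 1 transcript. The FMR1-ADARcd fusion lacks the double-stranded RNA binding domains of Adar and edits adenosines of the RNAs that FMR1 binds. For arsenite, the paper proposes that it also edits other RNAs close to it in stress granules. A G in the genome of the fly stock gives the same reads as an edited A, and no DNA of the stock or the cell line was analysed here. "Edited" below therefore means read as G in place of the reference A.

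The 3 bases around the adenosine, as deposited with the calls, are given for positions that carry the results, written 5' to 3' on the transcript with the adenosine in capitals. The first set had edited reads in each of the 7 brain samples.
Shab, 3L:2941132: aAt
roX1, X:3861501: gAa
lid, 2L:5992145: gAc
CG6024, 3L:11737027: gAc
Nckx30C, 2L:9733349: aAg
CCT7, 3R:8805873: cAt
mt:CoI, mitochondrion_genome:1836: gAa
The second set had few edited reads in uninduced brain and more after induction of the fusion.
sesB, X:10781245: tAg
fne, X:12942737: aAt
wdb, 3R:27566346: aAg
Droj2, 3R:13384008: cAg
mts, 2L:7830895: cAc
Atpalpha, 3R:20965039: tAc
Each position is 1 base on the BDGP6 assembly.

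The markers of the tissue, summed by cell type, matched the labels. Counted as reads at variant positions, the 9 neuronal markers summed to between 3784 and 6099 reads per brain sample against 139 to 201 per S2 sample. The 7 glial markers summed to between 662 and 1142 against 69 to 186, and the 5 neuroblast markers to between 3530 and 7370 against 15 to 116. The glial marker moody alone did not follow, with 6 to 23 reads per brain sample and 17 to 31 per S2 sample. Of 6 blood cell markers, 2 had variant positions, with 88 to 270 reads per brain sample and 3274 to 3942 per S2 sample. Between 247153 and 458176 reads covered the A-to-G positions of a sample. The median depth of the 308 positions in uninduced brain was 12 reads, from 2 to 168, and 125 of them had fewer than 10 reads. At the edge of the rule, 130 positions had exactly 2 edited reads in uninduced brain and a median share of 25.2% in brain Schneider's, while the 973 positions with 1 edited read had a median of 7.58%. In bulk samples a lower share in each cell and fewer cells with the edit cannot be told apart.

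Over the 308 positions together, the edited share was high before induction and a few points higher after it. In the uninduced brain sample 29.2% of the reads were edited. The brain Schneider's replicates gave 31.1%, 36.2% and 34.4%, a mean of 33.9% ± 2.56 (SD, n = 3), and the arsenite replicates 37.1%, 36.8% and 35.5%, a mean of 36.5% ± 0.829 (SD, n = 3). All 6 induced samples were above the 1 uninduced sample, whose reads chose the positions, and the Schneider's and arsenite ranges overlapped. At all other A-to-G positions the share was 0.277% in uninduced brain, 3.79% ± 0.498 in Schneider's and 8.12% ± 1.89 in arsenite, with no overlap between the 3 groups. The rule left these with fewer than 2 edited reads in uninduced brain, so their low share there follows partly from it. Over all A-to-G positions the share was 0.731% uninduced, 4.25% ± 0.497 in Schneider's and 8.54% ± 1.86 in arsenite. Without the 4 mitochondrial positions the brain means were 30.9% ± 1.91 in Schneider's and 33.8% ± 0.969 in arsenite.

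In S2 cells the same 308 positions had an edited share of 7.21% in the uninduced sample. The S2 Schneider's replicates gave 23.7%, 23.1% and 23.9%, a mean of 23.5% ± 0.399 (SD, n = 3), and the arsenite replicates 26.7%, 25.8% and 26.2%, a mean of 26.2% ± 0.427 (SD, n = 3). Here the groups did not overlap, and all other A-to-G positions moved from 0.509% through 9.54% ± 0.0785 to 18.3% ± 0.150. The values of the 308 positions in uninduced brain are high because the rule chose them so.

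**Figure D1:**
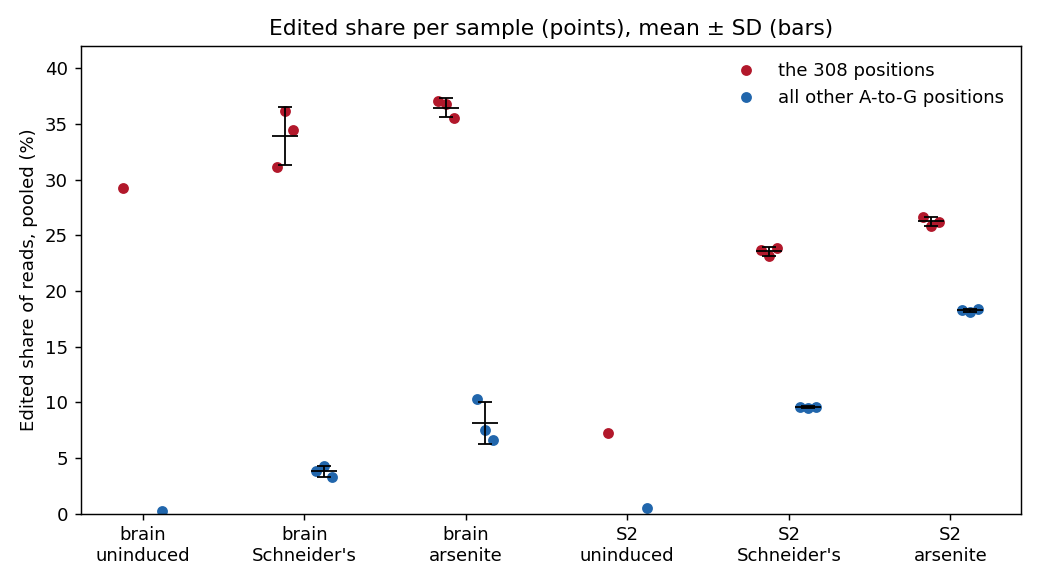
Edited share of the reads (%) pooled over the 308 positions (red) and over all other A-to-G positions (blue) in each of the 14 bulk samples, with the mean and SD of groups of 3 replicates. The 308 positions lie between 29.2% and 37.1% in the 7 brain samples, while the other positions climb from 0.277% to between 6.65% and 10.3% in arsenite.

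Edited reads were recurrent across the brain samples. Of the 308 positions, 179 had an edited read in each of the 7 brain samples. Each of the 308 had one in at least 1 induced sample. Calls on merged alignments with a quality limit favour positions with edited reads in several samples, so this recurrence follows partly from the filters. It was not counted over all A-to-G positions or for other base changes. Over all 308, the median share was 39.6% in uninduced brain and 40% in the pooled Schneider's reads, and shares ran up to 100% in both. A minimum of 10 reads leaves out shallow positions, at which 2 edited reads are a high share. The uninduced median was 19.0% over the 183 positions that reached it. With this minimum in each sample, the medians were 28.3%, 31.8% and 26.3% in the Schneider's replicates. In the arsenite replicates they were 36.4%, 33.3% and 33.3%. The positions that reached the minimum differed between samples. In brain Schneider's, 33 positions were below 10%, 120 between 10 and 40%, 85 between 40 and 60%, 49 between 60 and 90%, and 21 at 90% or more.

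A-to-G was not the leading base change found by the rule. Applied to all single-base changes, it found 11868 positions, of which the 308 A-to-G positions were 2.60% (95% Clopper-Pearson interval 2.32 to 2.90%, counting error only). The count was 8829 for A-to-C, 1025 for T-to-G, 461 for C-to-A, 346 for C-to-T, 298 for G-to-A and 89 for T-to-C, and from 65 to 187 for the other 5 changes. At least 2 alternate reads in uninduced brain were found at 0.937% of the passing A-to-G positions. The share was 35.6% for A-to-C, 12.4% for T-to-G, 10.2% for C-to-A, 44.6% for C-to-T, 37.7% for G-to-A and 16.8% for T-to-C positions. These percentages rest on unlike totals, with 32873 A-to-G, 24803 A-to-C, 776 C-to-T and 791 G-to-A positions passing. Of the A-to-G positions, 31592 had no edited read in uninduced brain. The median share in brain Schneider's was 40% for A-to-G, 48.6% for C-to-T, 47.9% for G-to-A and 50% for T-to-C, and 9.09% for A-to-C, 5.26% for T-to-G and 7.04% for C-to-A. Deamination of adenosine gives A-to-G alone, and how many of the 308 positions are differences between the stock and the reference genome was not tested.

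The 308 positions lay outside coding sequence more often than A-to-G positions in general. By the Ensembl 115 annotation, 74.0% were in coding exons, against 88.5% of all A-to-G positions. The 3' UTR held 11% against 5.90%, the 5' UTR 6.82% against 4.18%, and exons of non-coding RNAs 6.49% against 0.362%. Of the 226 coding positions with a single reading frame, 71.7% were at codon base 1 or 2, against 75.8% of all. A G directly 5' of the adenosine was found at 14.6% against 4.93%, a T 5' at 26.6% against 36.2%, and a G 3' at 36.4% against 50%. These shares were set side by side without a test.

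The share in S2 cells went with different shares in the brain. The classes were set after the values were seen, by the share pooled over the 7 S2 samples, so the S2 shares define them. The brain shares are not free of the rule either. It required edited reads in uninduced brain, and its share limit acted on brain and S2 reads together. Differences in brain share between the classes are therefore a description. Of the 308 positions, 228 had at least 10 S2 reads, and 31 had none. No S2 read was edited at 79 positions, under 1% at 7, 1 to 10% at 28, 10 to 90% at 100 and 90% or more at 14.

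The 79 positions without an edited S2 read were covered by 815 reads in uninduced S2 cells, 2703 in Schneider's and 2419 in arsenite. That none was edited follows from how the class was set, so no upper limit is given. Of these positions 78 were nuclear. Their pooled share in brain was 47.1% uninduced, 46.0% ± 4.13 in Schneider's and 43.4% ± 0.948 in arsenite (SD, n = 3). The brain samples ranged from 41.5% to 49.6%, and the uninduced sample lay within the induced range. Of the 79, 34 had a share between 40 and 60% in brain Schneider's, 22 between 10 and 40%, and 8 of 90% or more. A T lay 5' of the adenosine at 8.86% of them, a G 3' at 20.3%, and none had a T before and a G after it.

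At the 100 positions with 10 to 90% in S2 cells, the brain share was 12.5% uninduced, 22.9% ± 2.12 in Schneider's and 30.1% ± 2.73 in arsenite, and the 3 groups did not overlap. In S2 cells these positions had 7.63% uninduced, 42.1% ± 1.1 in Schneider's and 47.2% ± 0.554 in arsenite. A T lay 5' of the adenosine at 40% of them, a G 3' at 53%, and both at 15%, against 12.4% of all A-to-G positions. The 28 positions with 1 to 10% in S2 cells had 18.2% in uninduced brain, 19.4% ± 1.56 in Schneider's and 21.7% ± 1.16 in arsenite. At the 14 positions with 90% or more in S2 cells, all 110 reads of the uninduced S2 sample were edited. Their brain shares were 65.1% uninduced, 52.5% ± 2.17 in Schneider's and 54.7% ± 1.33 in arsenite. The share limit left out positions read almost wholly as G in both tissues, so high brain shares were kept out of this class by the rule.

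**Figure D2:**
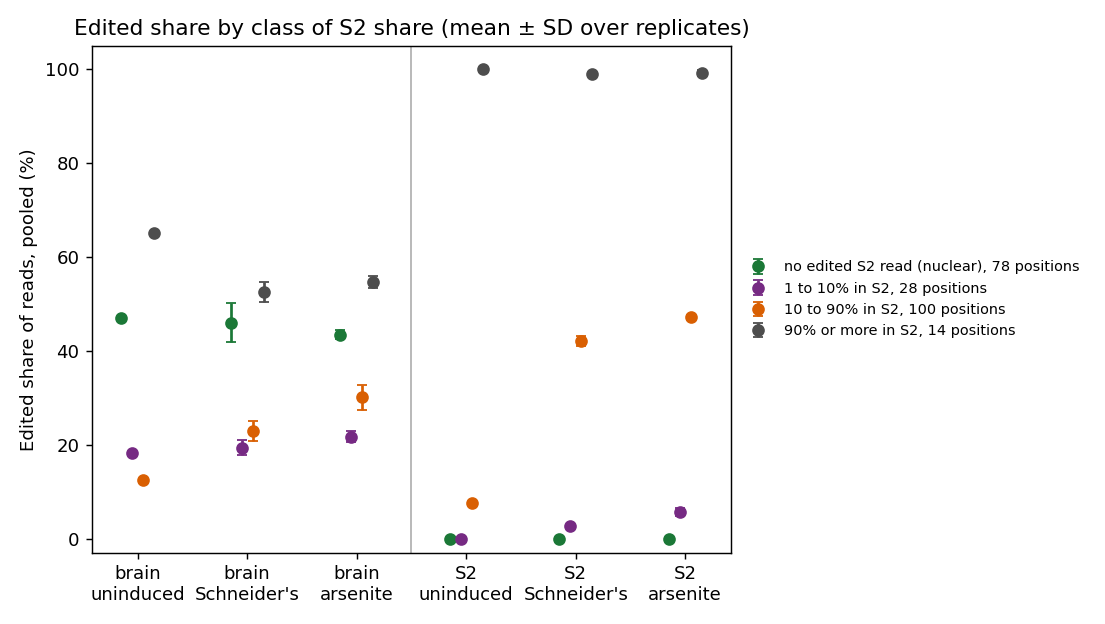
Edited share of the reads (%) pooled over the positions of a class, by group (mean ± SD of 3 replicates, 1 sample for uninduced groups), with classes set by the share over all S2 samples. In brain, the 78 nuclear positions without edited S2 reads stay between 43.4% and 47.1%, while the 100 positions with 10 to 90% in S2 cells go from 12.5% to 30.1%.

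Among the listed neuronal genes, ion channels and pumps held 9 of the 308 positions among their 63 A-to-G positions, and transmitter receptors 4 among 9, where 0.937% of all A-to-G positions belonged to the 308. Genes of vesicle release and recycling held 3 of 101, RNA-binding genes 4 of 167, and cytoskeletal genes 3 of 252. The lists were drawn up with results of these data known, so these shares are a description.

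Shab, a delayed rectifier potassium channel (3L, 2895017 to 2959579), held 5 of the 308 positions among its 7 A-to-G positions, all in coding exons. At 3L:2941132, codon base 1, 9 of 9 reads were edited in uninduced brain (95% interval 66.4 to 100%). The Schneider's replicates had 1 of 1, 4 of 6 and 3 of 4 edited reads, and the arsenite replicates 4 of 7, 8 of 10 and 2 of 6. The neighbouring adenosine at 2941131, whose reads largely come from the same molecules, had 2 of 8 in uninduced brain and 21.4% over the 7 brain samples against 72.1% at 2941132. A second pair of adjacent adenosines at 2941425 and 2941426 had 3 of 3 edited reads each in uninduced brain, and 31.2% and 68.8% over all brain samples. The remaining position, 2925255, had 4 of 4. No S2 read covered any of the 5 positions.

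Sh encodes the Shaker potassium channel. Its position X:17930733 had 2 of 4 edited reads in uninduced brain and 34.6% over the brain samples. The calcium channel subunit stj had 2 of 7 at 2R:13817379, in a coding exon, and 31.2% over the brain samples. In S2 cells stj had 2 edited reads of 53. At these depths a change with treatment was not detectable.

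Atpalpha, the catalytic subunit of the sodium-potassium ATPase, held 2 positions among its 32, both at codon base 2, where the 3 bases shown are the codon. At 3R:20964328, which changes GAG to GGG, 3 of 43 reads were edited in uninduced brain. The 6 induced brain samples had 1 edited read each, of 20 to 36 reads, and S2 cells 2 of 113. At 3R:20965039, which changes TAC to TGC, 4 of 30 reads were edited in uninduced brain. The Schneider's replicates had 7 of 21, 16 of 22 and 9 of 14, and the arsenite replicates 12 of 22, 15 of 35 and 8 of 14. Uninduced S2 cells had 6 of 16, S2 Schneider's 19 of 24, 14 of 18 and 16 of 22, and S2 arsenite 11 of 19, 15 of 23 and 9 of 12. In S2 cells the second was above its uninduced share in all 6 induced samples. S2 reads entered the rule only through the share limit and the calls on merged alignments. Neither passed the limma test between arsenite and Schneider's, with differences of 1.35 points (SE 0.540, adjusted p = 0.401) and -5.27 points (SE 11.9, adjusted p = 0.891) in brain.

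The nicotinic acetylcholine receptor subunit nAChRbeta2 held 2 positions 5 bases apart on 3R in a coding exon. At 24511656 there were 3 of 8 edited reads in uninduced brain, 5 of 9, 1 of 2 and 2 of 4 in Schneider's, and 4 of 9, 1 of 6 and 0 of 7 in arsenite. At 24511651 the edited reads were 2 of 7, then 5 of 9, 1 of 3 and 2 of 5, then 4 of 9, 1 of 7 and 0 of 7. Both positions had 1 edited read of 17 in S2 cells. The adjacent 3' UTR positions 14091477 and 14091478 of nAChRalpha5 had 2 of 2 edited reads each in uninduced brain, and only 5 reads over all brain samples.

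Of the listed genes of vesicle release and recycling, 3 held 1 position each. AP-2alpha, a subunit of the clathrin adaptor AP-2, had 10 of 17 edited reads at 2L:411895 in uninduced brain and 74.5% over the brain samples. In S2 cells it had 0 of 5 uninduced and 22 of 57 over all samples. The clathrin assembly protein gene lap had 3 of 12 at 3R:7192775, 42% over the brain samples, and 0 of 43 in S2 cells, which allows up to 6.98%. The priming factor unc-13 had 2 of 9 at 4:889066 and 11.8% over the brain samples.

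The neuronal RNA-binding protein genes fne and elav held 1 position each. At X:12942737, codon base 2 of fne, which changes AAT to AGT, 2 of 45 reads were edited in uninduced brain (95% interval 0.543 to 15.1%). The Schneider's replicates had 37 of 82, 25 of 42 and 12 of 28, and the arsenite replicates 31 of 49, 22 of 53 and 25 of 44. The 2 treatments of fne overlapped (difference 4.70 points, SE 7.77, limma adjusted p = 0.801). In the 5' UTR of elav at X:523164, 5 of 14 reads were edited in uninduced brain, against 1 of 5, 3 of 14 and 5 of 17 in Schneider's and 1 of 11, 5 of 17 and 5 of 26 in arsenite. Syp, a Syncrip homologue, had 2 of 34 at 3R:20780400 and 3 of 29 at 3R:20780791 in its 5' UTR, and 11.7% and 29.2% over the brain samples. The difference between fne and elav was not tested. Of the cytoskeletal linker genes, Msp300 had 3 of 8 at 2L:5206020 in its 3' UTR, and shot had 2 of 2 and 2 of 6 at its 2 coding positions on 2R.

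All A-to-G positions of these lists that were deep enough were also tested between arsenite and Schneider's in brain. The count called at p under 0.01 was 1 higher of 25 tested for channels and pumps, 1 of 20 for vesicle release, 3 of 64 for RNA-binding genes and 2 of 60 for the cytoskeleton, with none lower, near the 5.61% of all tested positions that were called higher, and no receptor position was deep enough. Median differences were 1.33, 0.962, 1.58 and 4.52 points, against 2.45 points over all positions tested. None of the 5 list members of the 308 that were tested was called.

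Among genes other than channels, roX1 held as many positions as Shab, and hth and Hsromega held the next largest groups. roX1, a non-coding RNA of the dosage compensation complex, held 5 of its 6 A-to-G positions on X, of which 3861498, 3861499, 3861501 and 3861505 lie within 8 bases. At 3861501, 49 of 57 reads were edited in uninduced brain. The Schneider's replicates had 59 of 70, 27 of 33 and 39 of 42, and the arsenite replicates 38 of 45, 51 of 59 and 32 of 52. At 3861505, 4 bases away, 18 of 62 were edited in uninduced brain, then 18 of 80, 6 of 46 and 13 of 50, and 6 of 55, 13 of 54 and 7 of 63. Over the brain samples the shares were 82.4% and 19.8%, and 17.4%, 11% and 4.71% at 3861499, 3861498 and 3861324. The share at 3861501 was above that at 3861505 in each of the 7 brain samples, while the adjacent adenosines at 3861499 and 3861498 were closer to each other.

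The homeobox gene hth held 4 positions in its 3' UTR on 3R, among its 7. The positions 10585174, 10585180 and 10585186 are spaced by 6 bases and had 11 of 19, 12 of 18 and 10 of 17 edited reads in uninduced brain. Over the 7 brain samples their shares were 41.9%, 64.6% and 58.7%, and that of 10584920 was 22.7%. S2 cells had at most 6 reads at each, with none edited. Hsromega, a stress-induced non-coding RNA, held 4 of its 6 positions, with brain shares of 20.6%, 37.8%, 50% and 32.7% and no edited S2 read among 41, 39, 20 and 51.

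The non-coding RNA CR43283 held 3 positions on 3R among its 42, with 2 to 5 edited reads each in uninduced brain. At 11255088, 2 of 168 reads were edited in uninduced brain (95% interval 0.144 to 4.23%). The Schneider's replicates had 41 of 137, 25 of 83 and 25 of 74, and the arsenite replicates 40 of 151, 34 of 136 and 18 of 111, so that each arsenite replicate lay below every Schneider's replicate. The difference of -8.71 points (SE 3.23, limma adjusted p = 0.362) was not called. At 11250318 the uninduced share was 3 of 68, and the brain pool 30.1%. Of the 308 positions, 19 lay within 10 bases of another and 54 within 1000 bases, and 220 of the 257 genes held a single one.

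Only 4 mitochondrial A-to-G positions passed the filters, all among the 308, and 3 of them had the most edited reads of all in uninduced brain. At mt:CoI, a cytochrome c oxidase subunit, position 1836 had 101 of 102 edited reads in uninduced brain and 91 of 91, 94 of 94, 82 of 82, 67 of 67, 85 of 85 and 66 of 66 in the induced samples. S2 cells had 2 of 265. At mt:CoIII position 5212 the brain had 99.1% and S2 cells 0 of 589, which allows up to 0.509%. At mt:ATPase6 position 4620 the values were 99.5% and 1 of 1057, and at mt:ND2 position 791 they were 98.9% and 1 of 226. These positions were thus read almost wholly as G in all 7 brain samples and almost wholly as A in all 7 S2 samples. The share limit would have left out a position read almost wholly as G in both.

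The shares of nuclear positions with many edited reads ran from intermediate values to nearly all reads. CG6024 at 3L:11737027 had 30 of 65 in uninduced brain, 28 of 73, 20 of 51 and 15 of 51 in Schneider's, and 12 of 35, 22 of 62 and 20 of 40 in arsenite. The histone demethylase gene lid at 2L:5992145 had 17 of 27, then 8 of 17, 9 of 18 and 8 of 12, then 9 of 19, 9 of 15 and 3 of 13, and 0 of 78 in S2 cells, which allows up to 3.85%. The sodium-calcium exchanger gene Nckx30C at 2L:9733349, codon base 2, had 19 of 21 in uninduced brain and 92.8% over the brain samples. Act5C, a cytoplasmic actin, had 49 of 50 at X:5902796 in uninduced brain and 49 of 75, 41 of 50, 39 of 40, 41 of 51, 43 of 45 and 53 of 55 in the induced samples. In S2 cells Act5C had 1 of 357.

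Arsenite was compared with Schneider's in brain with limma on the edited share, where all 6 samples had 10 reads or more. Of the 308 positions 94 could be tested, and 5 were higher and 1 lower at p under 0.01. That is 5.32% and 1.06% of those tested, where 5.61% and 0.197% of all 5583 tested positions were called higher and lower. The share called higher was near that of all positions. The median difference was 1.83 points over the 94 and 2.45 points over all. None of the 6 had an adjusted p under 0.05, 16 were higher and 5 lower at an unadjusted p under 0.05, and a quasi-binomial model called 0. The shares of all positions at these settings were not counted, so these counts cannot be set against them.

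The largest rise was at 2R:10533642 in lola, a transcription factor of axon guidance. The Schneider's replicates had 8 of 56, 14 of 47 and 7 of 33 edited reads and the arsenite replicates 16 of 31, 19 of 35 and 18 of 41, a rise of 28.2 points (SE 5.11, limma adjusted p = 0.105). At wdb, a regulatory subunit of protein phosphatase 2A, 3R:27566346 rose from 26.2% ± 9.09 to 50.7% ± 2.69, by 24.5 points (SE 5.13, adjusted p = 0.145). At mmd, a gene of the ADAM metalloprotease family, X:15962399 rose from 6.84% ± 1.95 to 27.6% ± 6.13 (adjusted p = 0.0925). Actn, the actin crosslinker alpha-actinin, rose from 2.90% ± 2.59 to 13.0% ± 1.55 at X:2030783, and Argk, arginine kinase, from 2.81% ± 1.37 to 9.09% ± 1.1 at 3L:9049616. In all 5 the arsenite replicates lay above every Schneider's replicate, and each had exactly 2 edited reads in uninduced brain. Separate ranges were also found at positions not called, such as Vha16-1 and CR43283 3R:11255088, and were not counted over all tested positions.

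The 1 position that fell was 2R:23906492 in the non-coding RNA CR45926. It had 28 of 38 edited reads in uninduced brain, 13 of 25, 15 of 28 and 10 of 17 in Schneider's, and 10 of 25, 17 of 39 and 12 of 26 in arsenite. The mean went from 54.8% ± 3.57 to 43.2% ± 3.09, a fall by 11.6 points (SE 2.56, limma adjusted p = 0.153). With the shares divided by the edited share of each sample, 0 were higher and 14 lower, without a count over all positions. Without arsenite replicate 1 there were 2 higher. The call of CR45926 was lost in each of the 6 fits that left out 1 replicate, where the difference kept its sign and was -9.54 points at its smallest. The count of lower positions was 0 without arsenite replicate 2 or 3 or Schneider's replicate 1 or 3, and 2 without Schneider's replicate 2. Among the rises, the call was lost in 4 of these 6 fits for wdb, 3 for lola, 3 for mmd, 2 for Actn and 1 for Argk.

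**Figure D3:**
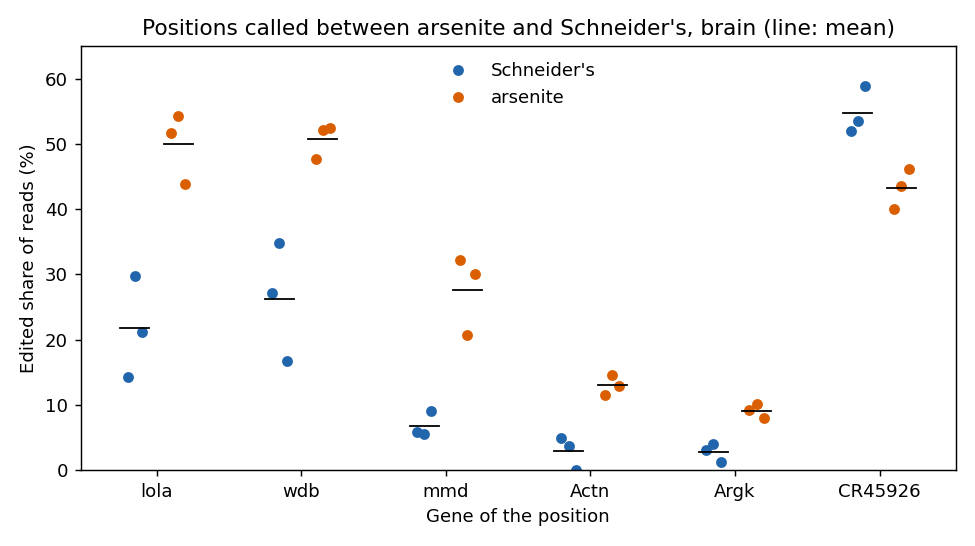
Edited share of the reads (%) in each Schneider's (blue) and arsenite (orange) brain replicate at the 6 positions called at p under 0.01, with the mean as a line. The arsenite replicates lie above all Schneider's replicates in lola, wdb, mmd, Actn and Argk and below them in CR45926.

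In S2 cells 57 of the 308 positions reached 10 reads in all 6 induced samples. Of these, 2 were higher in arsenite and 0 lower at p under 0.01 by limma, or 3.51%, where 16% of all 9196 tested positions were higher and 0.0652% lower. At an unadjusted p under 0.05 there were 6 higher and 1 lower, and the quasi-binomial model gave 1 and 0, without a count over all positions. The median difference was 0.513 points, against 7.04 points over all. At mts, the catalytic subunit of protein phosphatase 2A, 2L:7830895 had 2 of 10, 5 of 12 and 6 of 20 edited reads in Schneider's and 17 of 28, 17 of 28 and 17 of 26 in arsenite, a rise of 31.7 points (SE 5.69, adjusted p = 0.0284). At Droj2, a DnaJ co-chaperone, 3R:13384008 had 51 of 93, 47 of 96 and 65 of 112 in Schneider's and 69 of 92, 65 of 91 and 67 of 93 in arsenite, a rise of 18.9 points (SE 2.90, adjusted p = 0.0215). The mts call was lost without any 1 of the 3 arsenite replicates. Both positions had separate ranges, as did some positions not called, such as eIF4A. In uninduced S2 cells mts and Droj2 had 0 of 21 and 1 of 85 edited reads. With shares divided by the edited share of each sample, 0 were higher and 18 lower, again without a count over all positions. Droj2 then fell by 22.6 points of the scaled share. The count of higher positions was 1 without arsenite replicate 1 or 2, and 4 without arsenite replicate 3 or Schneider's replicate 3.

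Brain and S2 cells in Schneider's differed at many of the positions. Of 53 that reached 10 reads in all 6 samples, 10 were higher in brain (18.9%) and 13 lower (24.5%) at p under 0.01, where 0.548% and 11.2% of all 4558 tested positions were. The rule required edited reads in a brain sample outside this fit, so a higher share in brain is expected from the choice. Its share limit left out positions near 100% in all samples. A position near 100% in brain, as the mitochondrial ones were, thus passed only with a lower share in S2 cells. With the adjusted p under 0.05, 8 were higher and 5 lower. With at least 5 reads in each sample 35 were higher and 21 lower.

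Of the 10 higher in brain, 4 were the mitochondrial positions, with differences from 97.6 to 100 points and adjusted p of at most 2.48e-04. Act5C followed with 81.6% ± 16.1 in brain and 0% in S2 cells, where 0 of 140 reads allow up to 2.14%. RpL7A, a ribosomal protein, at X:6532067 had 20 of 35, 17 of 32 and 19 of 27 in brain Schneider's and 0 of 58 in S2 Schneider's, which allows up to 5.17%. The non-coding CR45926 had a mean of 54.8% against 0 of 154, which allows up to 1.95%, and CCT7, a chaperonin subunit, had 9 of 21, 6 of 16 and 6 of 13 at 3R:8805873 against 0 of 139, which allows up to 2.16%. Lam, a nuclear lamin, and EndoA, the endocytic protein endophilin A, complete the 10 with 40.9% ± 16.1 and 5.63% ± 2.36 against no edited read. In all 10 every S2 Schneider's replicate was at 0.

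Of the 13 lower in brain, the largest difference was at X:10781245 in the 3' UTR of sesB, the mitochondrial ADP/ATP translocase. The brain had 2 of 40 uninduced and 14 of 45, 20 of 45 and 9 of 48 in Schneider's. S2 cells had 35 of 88 uninduced and 58 of 72, 65 of 81 and 61 of 81 in Schneider's, a difference of -47.3 points (SE 7.14, adjusted p = 0.0334). GCS2alpha (a glucosidase II subunit), Rox8 (an RNA-binding protein), wdb and Vha16-1 (a proton pump subunit) came next, at -35.0, -34.7, -33.8 and -33.8 points. Vha16-1 at 2R:6625845 in its 3' UTR had 6.69% ± 0.989 in brain and 40.5% ± 6.01 in S2 cells. The calls of GCS2alpha, Rox8 and wdb were each lost in 5 of the 6 fits that left out 1 replicate, and those of sesB and Vha16-1 in 0. The other 8 were Droj2, lig, CycG, eIF4A, Ubi-p63E, CycT, 14-3-3zeta and betaTub56D. With shares divided by the edited share of each sample, 11 were higher and 1 lower in brain. The count of lower positions was 8, 7 and 8 without brain replicate 1, 2 and 3, and 7 and 5 without S2 replicate 1 and 2.

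**Figure D4:**
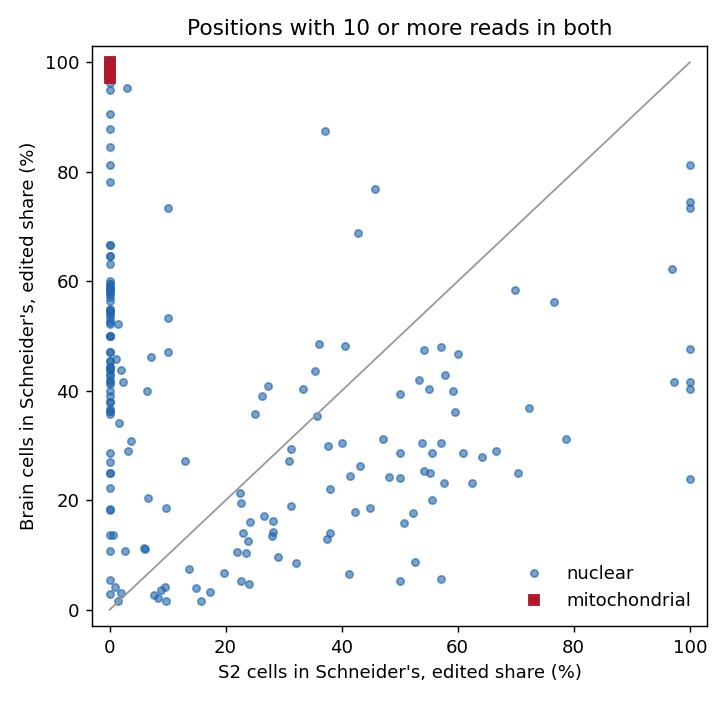
Edited share (%) in brain Schneider's against S2 Schneider's for the 187 positions with at least 10 pooled reads in both, nuclear (blue) and mitochondrial (red), with the line of equal shares. At 72 positions the S2 share is 0, with a median brain share of 52.4%, and the 4 mitochondrial positions lie at the upper left.

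In the uninduced S2 sample 47 of the 308 positions had an edited read and 25 had at least 2. The 5 with the most were sesB, CG15715, Ubi-p63E, CG10576 and cora. CG15715 at 3L:15836861 had 25 of 25 edited reads in uninduced S2 cells and 162 of 164 over all S2 samples, against 15 of 19 in uninduced brain and 67.0% over the brain samples. The septate junction gene cora at 2R:19229564, in the 5' UTR, had 14 of 14 and 80 of 81 in S2 cells, against 7 of 11 and 46.4% in brain. CG10576 at 3L:5763258 had 16 of 44 in uninduced S2 cells and 20 of 56, 17 of 46 and 24 of 60 in S2 Schneider's. The polyubiquitin gene Ubi-p63E at 3L:3901658 had 18 of 44 and then 23 of 71, 17 of 58 and 14 of 57, with 3 of 78 in uninduced brain. At sesB all 6 induced S2 samples were above the uninduced share of 35 of 88, while CG15715 and cora were wholly edited in uninduced S2 cells and could not go higher.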

How the data were processed

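Total RNA of 14 bulk samples was sequenced by VASA-seq. Per the authors' methods and the labels, reads were trimmed with cutadapt 3.2, ribosomal RNA was removed with BWA 0.7.17-r1188, the rest was mapped with STARsolo 2.7.7a to BDGP6, reads were collapsed by molecular identifier with UMI-tools 1.1.1, and variants were called with GATK 4.1.9.0 on merged alignments. The authors deposited, for each position and library, the counts of reference and alternate reads by strand. These reads are the unit used here. The table named 10 further libraries, which the labels do not map to a condition, and they were not used. Deposited gene averages, single-cell calls and the authors' own comparisons (fold changes and p-values) were not used either.

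The edited share is alternate over all reads of a position and sample. Gene features and codon bases came from Ensembl 115, which held 252 of the 257 genes. The test was limma 3.58.1 (R 4.3.3, moderated, two-sided, 3 against 3 samples) on the share, over all A-to-G positions that reached 10 reads in every sample of the fit, called at p under 0.01, with Benjamini-Hochberg adjustment over all positions tested. Intervals are 95% Clopper-Pearson and a count of 0 allows up to 3 reads of the total, both for counting error only. The fit was tested on simulated reads. Python 3.11.15, pandas 2.3.3, numpy 2.4.6, scipy 1.17.1 and matplotlib 3.10.9 were used.

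The positions, gene lists and markers were chosen with earlier results of these data known. Named are genes of the lists that hold a position, with values for the 15 deepest, the 10 positions with the most edited reads in uninduced brain, up to 5 called positions in each direction, the 5 genes with the most positions and the 5 positions with the most edited reads in uninduced S2 cells. Other positions of these genes, and RpL7A, CR45926, CCT7, Lam and EndoA in the comparison of brain with S2 cells, were named after their values were seen. Per the authors' methods, the 3 replicates of a group were separate experiments in S2 cells and biological replicates in brain. Each uninduced group had 1 sample here.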

Additional observations from a re-analysis of the deposited data

Results flagged for a closer look

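The effect of arsenite was compared between brain and S2 cells as an interaction in limma at 3427 positions that reached 10 reads in all 12 induced samples, a test added after the data were seen. Of the 39 positions among the 308 that were tested, 2 passed p under 0.01, where 7.5% of all did, and none had an adjusted p under 0.05. At CR45926 2R:23906492 the share fell by 11.6 points in brain and was 0 in both S2 groups, a difference of -11.6 points (limma adjusted p = 0.0903). At eIF4A 2L:5984152 the share was 4.26 points higher in brain arsenite and changed by -5.99 points in S2 arsenite, which differ by 10.2 points (limma adjusted p = 0.129). The replicate groups of 3 are too small for a check of single samples against their group.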

How the results depend on the processing

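Of the 308 positions, 214 were too shallow for the test in brain, and the cause of the changes below was not tested. Counts of higher and lower positions under other settings are of the 308 alone, without the share of all tested positions. In brain, 5 positions were higher and 1 lower in arsenite. The higher count was 2 on the log odds scale, and 0 with the quasi-binomial model, with adjusted p under 0.05, with at least 3 or 5 edited reads in uninduced brain, or scaled by the edited share of the sample. The lower count was 0 on the log odds scale, with the quasi-binomial model, with adjusted p or with at least 20 reads, and 14 when scaled. In S2 cells, 2 were higher and 0 lower. The higher count was 4 with at least 5 reads, 5 with at least 1 read, 1 on the log odds scale, with the quasi-binomial model or with at least 3 edited reads, and 0 with at least 5 edited reads or when scaled. The lower count was 1 with at least 1 read and 18 when scaled, where Droj2 reversed to -22.6 points. In the comparison of brain with S2 cells, 10 were higher and 13 lower. The higher count was 35, 4 and 59 with at least 5, 20 and 1 reads, and 6 without shares above 90%. The lower count was 21, 8 and 25 at these depths, 5 with the quasi-binomial model or adjusted p, 2 and 0 with at least 3 and 5 edited reads, and 1 when scaled.

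With each replicate left out, the higher and lower counts were 2 to 6 and 0 to 2 in brain, 1 to 4 and 0 to 1 in S2 cells, and 8 to 13 and 5 to 11 between brain and S2 cells. Same-numbered replicates did not deviate together (correlations of deviations from -0.0724 to 0.0679 over all pairs), so the numbers were not taken as pairs. With the replicate block the counts were 4 higher and 1 lower in brain, 2 and 1 in S2 cells, and 8 and 4 between them.

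The rule found 178, 92 and 1281 positions with at least 3, 5 and 1 edited reads. The A-to-G share of all changes was 4.78% with quality above 1000, 1.69% with no quality limit, 3.44% with at least 5 edited reads, 5.82% with 1, and 2.18% with an alternate share under 0.5. The pooled share in brain Schneider's was 31.1% as a mean over sites. In brain Schneider's, brain arsenite, S2 Schneider's and S2 arsenite it was 46.1%, 46.4%, 17% and 18.2% with at least 3 edited reads, 55.7%, 55.0%, 10.8% and 10.8% with at least 5, and 29.8%, 32.7%, 26.4% and 29.5% without shares above 90%. Without the mitochondrial positions, an alternative chosen after the data were seen, it was 30.9%, 33.8%, 25.9% and 28.9%. With quality above 1000 it was 37.6%, 24.1% and 26.9% in the last 3 groups. With each replicate left out it ranged from 32.8% to 35.3%, 36.2% to 36.9%, 23.4% to 23.8% and 26.0% to 26.4%. All other alternatives stayed within the spread of the replicates or within 1.5 times of the count.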
